A study of Mus musculus with 8 samples.

Results

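Of the 41709 genes listed in the expression table, 8 were chosen by symbol because they encode the immunoproteasome and the machinery that loads peptides onto MHC class I. They are *Psmb8*, *Psmb9* and *Psmb10* (immunoproteasome catalytic subunits), *Psme1* and *Psme2* (subunits of the PA28 activator), *Tap1* and *Tap2* (the peptide transporter) and *Tapbp* (tapasin). All 8 passed the filter on low values, as did 11530 genes in all. None of the 8 passed the adjusted test between siRNAs. All had a higher mean with *Uba1* siRNAs, by 1.15- to 1.36-fold, in a table where most genes did.

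RNA-seq of 8 tibialis anterior (TA) muscles compared 4 muscles electroporated with *Uba1* siRNAs and the 4 contralateral muscles with non-targeting (NT) siRNAs. *Uba1* encodes the main enzyme that activates ubiquitin, and the comparison asked what its knockdown changes in muscle. Both groups were 3-month-old male C57BL/6J mice whose muscles were pretreated with hyaluronidase, received a SMARTpool of 4 siRNAs and were collected 7 days after electroporation. Replicate numbers 1 to 4 are taken to pair the legs of a mouse, because paired titles share a number and the study describes contralateral muscles. All NT muscles have sample titles starting with RTA and all *Uba1* muscles titles starting with LTA, so siRNA and leg cannot be told apart if these letters name legs. The pools act on whichever cells take them up, and whole muscles were sequenced. Fewer cells of a type and less RNA per cell therefore cannot be told apart.

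The proteasome degrades ubiquitin-tagged proteins. In most cells its 3 catalytic positions are filled by constitutive subunits, and interferon gamma induces the immunosubunits *Psmb8* (in place of *Psmb5*), *Psmb9* (in place of *Psmb6*) and *Psmb10* (in place of *Psmb7*), which favour peptides suited to MHC class I. PA28 caps the proteasome core and opens it, TAP carries peptides into the endoplasmic reticulum, and tapasin bridges TAP and empty class I molecules. In muscle, the immunosubunits are known as markers of inflamed tissue.

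In GENCODE vM39 (GRCm39), *Psmb9*, *Tap1*, *Psmb8* and *Tap2* lie side by side within 34870 bases of chromosome 17 in the MHC, at 34400960 to 34406738 (minus strand), 34405996 to 34416199 (plus), 34416690 to 34420428 (plus) and 34422501 to 34435829 (plus). *Tapbp* lies on the same chromosome at 34134873 to 34148267 (plus). *Psme1* (55815190 to 55822034, plus) and *Psme2* (55824895 to 55829173, minus) are neighbours on chromosome 14, and *Psmb10* is on chromosome 8 at 106662362 to 106665077 (minus). The library kit does not mark strand, so reads from overlapping exons of different genes cannot be told apart. *Psmb9* and *Tap1* share 743 exonic bases, *Psme1* shares 2192 with *Emc9*, *Psme2* shares 731 with *Rnf31* and *Tapbp* shares 923 with *Zbtb22*. *Psme2* also has a close paralog, *Psme2b*, listed at 0.151 to 1.07 TPM, so the split of reads between them is uncertain.

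RefSeq promoter windows (GRCm38.p6, 250 bases before and 50 after each start) were found for 7 of the 8 genes, all but *Tap2*. Sequences are shown for the gene whose window held a match to the interferon regulatory factor motif, and for the start shared by *Tap1* and *Psmb9*. The *Psme1* bases (chr14:55578494-55578522, plus strand) hold, in capitals, a match on the opposite strand to the paired interferon regulatory factor element GAAANNGAA, which begins 11 bases into the transcript. The RefSeq starts of *Tap1* and *Psmb9* point away from each other with 225 bases between them, and the bases shown (chr17:34187368-34187397, plus strand) hold a GC box (GGGCGG, on the opposite strand).
*Psme1*: gagctgtgctTTCGCTTTCccttcccgct
*Tap1* and *Psmb9*: cagactgaggccCCGCCCcatcatcgcgca

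Each run is found once on its chromosome in GRCm39. There GENCODE places all its bases in exons, of *Psme1* for the first run and of both *Tap1* and *Psmb9* for the second. Of 32851 promoter windows searched on both strands, 8.56% held the interferon regulatory factor element, 4.51% the NF-kB consensus and 35.7% the GC box. The NF-kB consensus had no match in the windows of the 7 genes. These are descriptions of letters in a window and do not show binding.

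The targeted gene was low in every *Uba1* muscle. *Uba1* measured 60.6, 59.0, 63.6 and 59.1 TPM (transcript abundance scaled by gene length and library total) in NT replicates 1 to 4 and 18.1, 6.77, 15.8 and 23.1 TPM in the *Uba1* muscles, with an adjusted p of 0.053 in limma and of 0.028 with the replicate block. TPM values keep no record of sequencing depth, so the depth is unknown. The median log2 fold change (log2FC, *Uba1* over NT, on log2(TPM + 1)) of all genes tested was 0.11, and 81.8% of them were above 0. Median-ratio scaling, which divides each muscle by its median ratio to the average muscle, moved that median to 0.00 and the share above 0 to 50.7%. The divisors were 0.946 to 0.99 in NT muscles but 1.12 in *Uba1* replicates 1 and 3, against 0.970 and 0.986 in replicates 2 and 4. Values after this scaling are called scaled values below.

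Per unit of length, the 8 genes spanned a wide range of levels in NT muscles. *Psme1* had the highest mean, 25.7 ± 2.62 TPM (SD, n = 4), then *Psme2* (18.1 ± 1.96), *Tapbp* (17.7 ± 1.86), *Psmb10* (9.51 ± 1.06), *Tap2* (6.62 ± 0.752), *Psmb8* (3.25 ± 0.380), *Tap1* (2.23 ± 0.432) and *Psmb9* (1.32 ± 0.229). Neighbours in this order had separate ranges except *Psme2* and *Tapbp*. The order of the means was the same with *Uba1* siRNAs, where *Psmb8* also overlapped with *Tap1*, and *Tap1* with *Psmb9*. Of all genes tested, 18.1% had a higher mean over the 8 muscles than *Psme1* and 91.2% a higher mean than *Psmb9*.

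**Figure D1:**
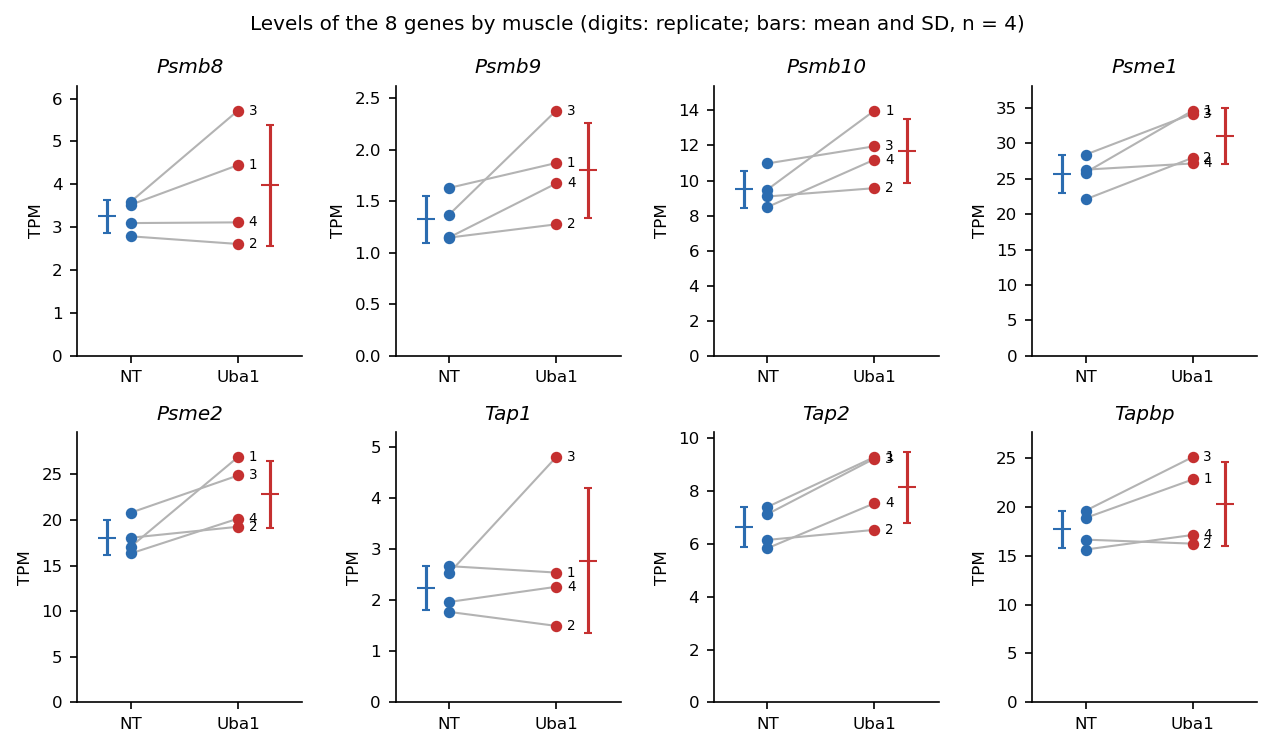
Level in TPM (y axis, from 0) of each gene in NT (blue) and *Uba1* (red) muscles, with a grey line joining the legs of a mouse, the replicate number beside each pair, and bars for the mean and SD of 4 muscles. In all 8 panels the groups overlap and *Uba1* replicates 1 and 3 are the highest red points.

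Among the catalytic immunosubunits, *Psmb10* (MECL-1, which takes the trypsin-like position) was the most abundant. It measured 9.48, 9.09, 11.0 and 8.49 TPM in NT replicates 1 to 4 and 14.0, 9.56, 12.0 and 11.2 TPM in *Uba1* replicates 1 to 4. Each *Uba1* muscle was above its contralateral leg, although replicate 2 with *Uba1* siRNAs stayed below NT replicate 3. The log2FC was 0.26 (SE 0.11, 95% CI 0.01 to 0.52), with an adjusted p of 0.27 in limma, and 0.15 on scaled values.

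*Psmb8* (LMP7, which takes the chymotrypsin-like position) measured 3.53, 2.79, 3.60 and 3.10 TPM with NT siRNAs and 4.45, 2.61, 5.72 and 3.11 TPM with *Uba1* siRNAs. Replicates 1 and 3 were higher with *Uba1* siRNAs, while replicates 2 and 4 were nearly level between the legs. Its log2FC was 0.19 (SE 0.18, 95% CI -0.22 to 0.60, adjusted p = 0.57 in limma). It was 0.09 on scaled values, 0.029 without *Uba1* replicate 3 and 0.33 without *Uba1* replicate 2. With replicates 2 and 4 alone, an alternative chosen after seeing the data, it was -0.032.

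*Psmb9* (LMP2, which takes the caspase-like position) was the lowest of the 8, at 1.63, 1.15, 1.37 and 1.15 TPM with NT siRNAs and 1.87, 1.28, 2.38 and 1.67 TPM with *Uba1* siRNAs. It was higher in the *Uba1* leg of all 4 mice, and the groups overlapped through *Uba1* replicate 2. The log2FC was 0.26 (SE 0.13, 95% CI -0.03 to 0.55, adjusted p = 0.32 in limma). Adding 1 TPM before taking the log compresses the difference of a gene at this level, and with a pseudocount of 0.1 the log2FC was 0.40. It was 0.18 on scaled values and 0.16 without *Uba1* replicate 3.

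The PA28 subunits were the most abundant of the 8. *Psme1* (PA28 alpha) measured 25.9, 22.1, 28.4 and 26.3 TPM with NT siRNAs and 34.6, 28.0, 34.2 and 27.2 TPM with *Uba1* siRNAs. *Psme2* (PA28 beta) measured 17.1, 18.0, 20.8 and 16.3 TPM with NT siRNAs and 26.9, 19.3, 24.9 and 20.1 TPM with *Uba1* siRNAs. Both were higher in the *Uba1* leg of all 4 mice, and in both the lower *Uba1* muscles (replicates 2 and 4) lay within the NT range. *Psme2* had the largest log2FC of the 8, 0.31 (SE 0.12, 95% CI 0.05 to 0.58, adjusted p = 0.23 in limma). That of *Psme1* was 0.26 (SE 0.11, 95% CI 0.02 to 0.50, adjusted p = 0.25 in limma). On scaled values the log2FC of *Psme2* was 0.20 and that of *Psme1* 0.14.

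For the peptide transporter, *Tap1* mRNA was at 0.335 of the level of *Tap2*, with whose product it forms a heterodimer, in NT muscles. *Tap2* measured 7.39, 6.15, 7.12 and 5.83 TPM with NT siRNAs and 9.28, 6.53, 9.23 and 7.54 TPM with *Uba1* siRNAs. All 4 *Uba1* legs were the higher of their pair, and only *Uba1* replicate 2 fell inside the NT range. The log2FC was 0.26 (SE 0.12, 95% CI -0.01 to 0.52, adjusted p = 0.29 in limma), and 0.15 on scaled values.

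*Tap1* measured 2.66, 1.77, 2.53 and 1.96 TPM with NT siRNAs and 2.54, 1.49, 4.79 and 2.26 TPM with *Uba1* siRNAs. A single muscle, *Uba1* replicate 3, carried the higher mean: 2 of the 4 *Uba1* legs were below their NT leg. The log2FC was 0.16 (SE 0.23, 95% CI -0.35 to 0.68, adjusted p = 0.70 in limma), and it was 0.07 on scaled values. Without *Uba1* replicate 3 it was -0.067, without *Uba1* replicate 2 it was 0.34 and without NT replicate 2 it was 0.09.

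*Tapbp*, which edits the peptides that class I molecules bind, measured 18.8, 16.6, 19.6 and 15.6 TPM with NT siRNAs and 22.8, 16.2, 25.1 and 17.1 TPM with *Uba1* siRNAs. Replicates 1 and 3 were above the NT range and replicates 2 and 4 inside it. Its log2FC was 0.17 (SE 0.14, 95% CI -0.14 to 0.49, adjusted p = 0.51 in limma), and 0.06 on scaled values. Leaving out *Uba1* replicate 1, 2 or 3 gave 0.11, 0.27 or 0.068.

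As a group, 0 of the 8 genes passed an adjusted p of 0.05 in limma, where 0.026% of all genes did. At an unadjusted p under 0.05, 3 of the 8 were higher with *Uba1* siRNAs (*Psmb10*, *Psme1* and *Psme2*), against 16% of all genes tested. The Kruskal-Wallis test gave 0 at an adjusted and 1 at an unadjusted p under 0.05, where 19.2% of all genes were at that unadjusted p. All 8 groups overlapped, where 11.6% of all genes had groups that did not. The median log2FC of the 8 was 0.26, and 10.6% of all genes tested were at or above it. After median-ratio scaling all 8 remained above 0, at 0.06 to 0.20 with a median of 0.14, which 12.8% of all genes reached. *Psme2* alone then had an unadjusted p under 0.05, where 4.43% of all genes did so and were higher.

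**Figure D2:**
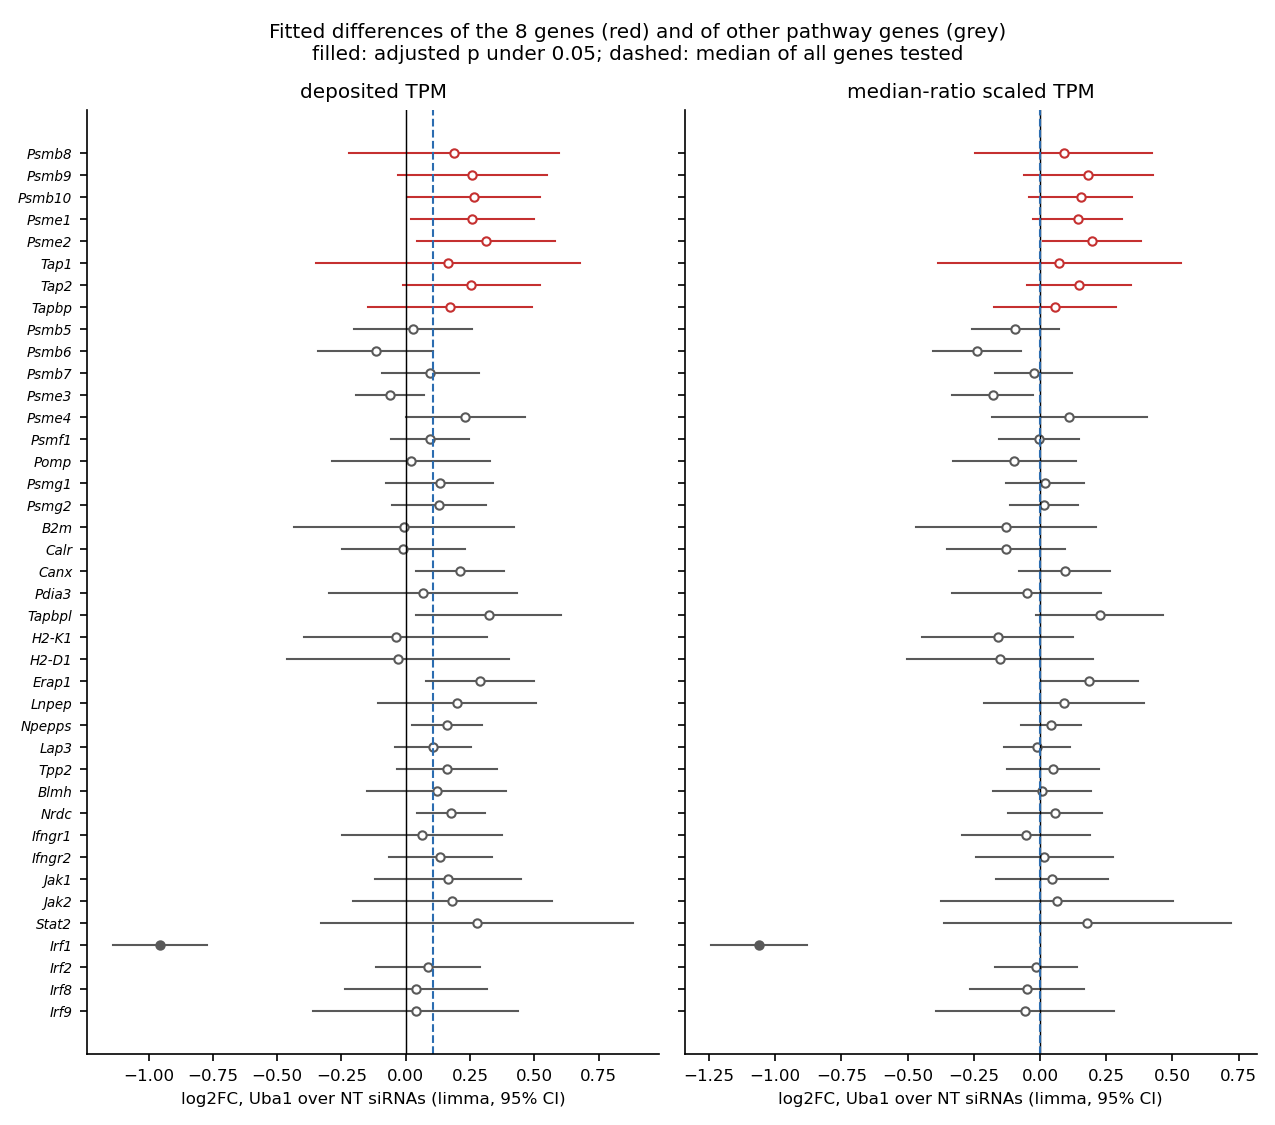
Fitted log2FC (x axis, *Uba1* over NT siRNAs) with 95% confidence intervals from limma for the 8 genes (red) and 32 of the 33 other pathway genes tested (grey), on deposited TPM at left and on median-ratio scaled TPM at right. The 8 points lie between 0.16 and 0.31 at left and 0.06 and 0.20 at right, and *Irf1* is the filled point, the gene that passed the adjusted test.

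Within mice, 5 of the 8 (*Psmb9*, *Psmb10*, *Psme1*, *Psme2* and *Tap2*) were higher in the *Uba1* leg of all 4, as were 32.2% of all genes tested. On median-ratio scaled TPM, 2 of the 8 (*Psme2* and *Tap2*) were, against 11.6% of all genes. The median difference of the 8 genes was 0.28 in replicate 1, 0.07 in replicate 2, 0.34 in replicate 3 and 0.21 in replicate 4 on the log2 scale. The median over all genes in the same pairs was 0.19, 0.03, 0.15 and 0.04. The median difference was smallest in replicate 2, although *Psme1* and *Psmb8* differed less in replicate 4 and *Tap1* in replicate 1. With the replicate block, which compares the legs of a mouse, 5 of the 8 had an unadjusted p under 0.05 in limma, against 22.4% of all genes that did and were higher. With the block on scaled values 2 of the 8 did (*Psme2* and *Tap2*), against 6.96% of all genes. The adjusted p-values with the block were 0.12 to 0.16 for these 5 and up to 0.47 for all 8, so none was called.

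**Figure D3:**
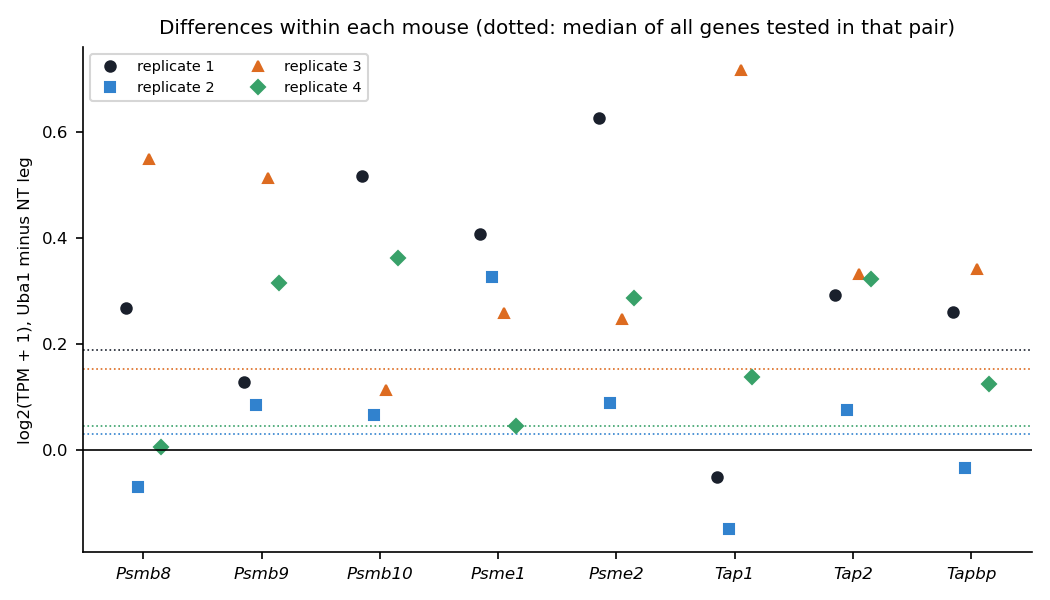
Difference in log2(TPM + 1) between the *Uba1* and the NT leg (y axis) of each mouse for the 8 genes (x axis), with a symbol per replicate and dotted lines at the median of all genes tested in that pair. Replicate 2 is below 0 for *Psmb8*, *Tap1* and *Tapbp*, while replicate 3 is above 0 for all 8 genes.

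Muscles also differed from each other apart from the siRNA. In the *Uba1* group, replicates 1 and 3 were the highest muscles for 8 of the 8 genes, and in the NT group they were for 6 of the 8. *Uba1* replicate 2 was the lowest of its group for 7 of the 8. On median-ratio scaled TPM, replicates 1 and 3 were the highest *Uba1* muscles for 5 of the 8 and the highest NT muscles for 6. The SD of the mouse means was larger than the mean difference between the legs for 3 of the 8 genes (*Psmb8*, *Tap1* and *Tapbp*) and smaller for 5. It was 0.33 against 0.16 on the log2 scale for *Tap1*, and 0.15 against 0.31 for *Psme2*.

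Relative to the constitutive subunits, the immunosubunits were a small part of the catalytic mRNA. *Psmb8* made up 1.44% ± 0.215 (SD, n = 4) of the summed TPM of *Psmb8* and *Psmb5* in NT muscles and 1.68% ± 0.461 in *Uba1* muscles. *Psmb9* made up 1.09% ± 0.247 of *Psmb9* and *Psmb6* in NT muscles and 1.56% ± 0.303 in *Uba1* muscles. For *Psmb10* and *Psmb7* the share was higher, 8.12% ± 0.929 and 9.15% ± 0.750. By mean TPM in NT muscles, *Psmb5* was 69.0 times, *Psmb6* 91.9 times and *Psmb7* 11.3 times as abundant as its immunosubunit.

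A ratio of genes within a muscle does not depend on how that muscle was scaled, and 5 were compared by two-sided exact permutation tests, whose smallest possible p for 4 against 4 muscles is 0.0286, or 0.143 after adjustment when a single ratio reaches it. The largest difference was in *Psmb9*/*Psmb6*, whose log2 ratios were -6.09, -6.75, -6.55 and -6.75 in NT muscles and -6.12, -6.20, -5.61 and -6.06 in *Uba1* muscles. It was higher by 0.54 (SD of the pair differences 0.41) with *Uba1* siRNAs and in 3 of 4 pairs, with an exact permutation p of 0.0857 and 0.43 after adjustment over the 5 ratios. *Psmb6*, the denominator, had a log2FC of -0.12. *Psmb8*/*Psmb5* differed by 0.20 (exact permutation p = 0.43, adjusted 0.68), or 0.027 without *Uba1* replicate 3, and *Psmb10*/*Psmb7* by 0.19 (exact permutation p = 0.17, adjusted 0.43), the latter higher in 4 of 4 pairs and at 0.11 without NT replicate 4. For partners within a complex, *Psme1*/*Psme2* differed by -0.06 (exact permutation p = 0.54) and *Tap1*/*Tap2* by -0.09 (exact permutation p = 0.74). Both signs turned when 1 muscle was left out, to 0.0010 for *Psme1*/*Psme2* without NT replicate 4 and 0.066 for *Tap1*/*Tap2* without *Uba1* replicate 2. *Tap1*/*Tap2* ranged from -1.80 to -1.47 in NT muscles and from -2.13 to -0.94 in *Uba1* muscles.

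**Figure D4:**
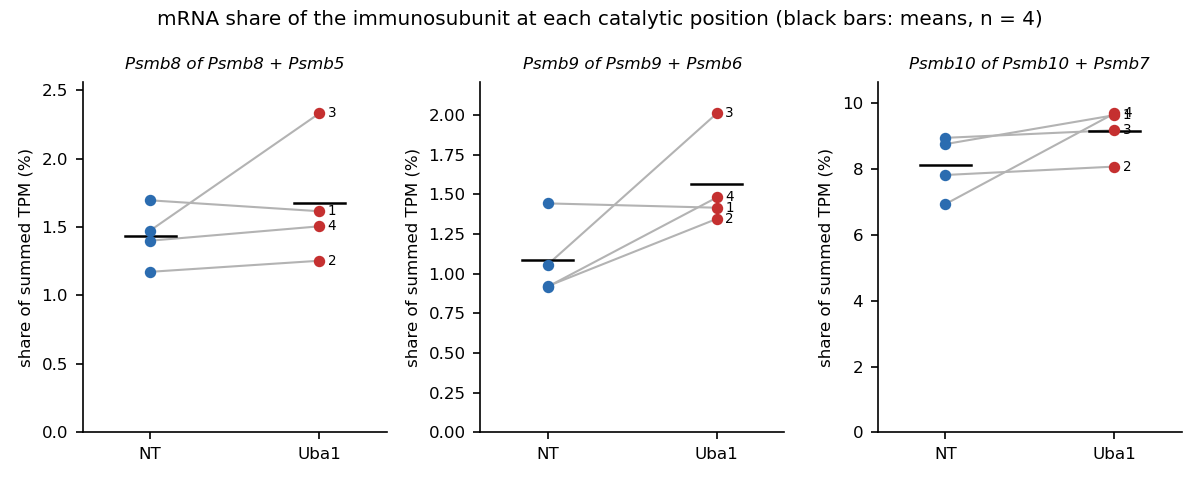
Share of the immunosubunit in the summed TPM of itself and its constitutive counterpart (y axis, percent, from 0) in each NT (blue) and *Uba1* (red) muscle, with grey lines joining the legs of a mouse, black bars at the means and the replicate number beside each pair. The *Psmb10* share is 6.93% to 9.69%, and those of *Psmb8* and *Psmb9* are 0.919% to 2.33%.

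Of 35 other genes of the pathway on fixed lists, 33 were tested in limma, 0 rose and 1 fell (*Irf1*). At an unadjusted p under 0.05, 6 were higher, against 16% of all genes, and 1 was lower, against 1.98%. On scaled values the split turned, to 1 higher (*Erap1*), against 4.43% of all genes, and 3 lower (*Irf1*, *Psmb6* and *Psme3*), against 6.18%. None of the 3 constitutive catalytic subunits passed: *Psmb5* had a log2FC of 0.03, *Psmb6* -0.12 and *Psmb7* 0.10, and on scaled values -0.09, -0.24 and -0.02. *Psmb6* was at -0.19 without *Uba1* replicate 1 and -0.031 without *Uba1* replicate 2, and *Psmb7* at 0.034 without *Uba1* replicate 1 and 0.055 without NT replicate 1. Of 6 other activators, inhibitors and assembly factors 0 passed, with a median log2FC of 0.11, from -0.06 for *Psme3* (the nuclear PA28 gamma) to 0.23 for *Psme4* (PA200), and at -0.18 and 0.11 on scaled values. Among 7 trimming enzymes, which shorten peptides before or after transport, 0 passed and the median was 0.16. *Erap1*, the aminopeptidase of the endoplasmic reticulum, had the largest value there, 0.29 (0.19 on scaled values, adjusted p = 0.18 in limma). On deposited TPM it was 1 of 3 genes of this list whose groups did not overlap, as for 11.6% of all genes. It was at 4.03 to 5.55 TPM with NT siRNAs and 5.58 to 6.52 TPM with *Uba1* siRNAs. The others, *Npepps* and *Nrdc*, named after their values were seen, had a log2FC of 0.04 and 0.06 on scaled values. *Lap3*, a cytosolic aminopeptidase, had the smallest, 0.11. On median-ratio scaled values the medians of these 3 lists were -0.09, 0.00 and 0.05.

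The 7 loading partners, among which the 8 genes work, had a median log2FC of -0.01 (-0.13 on scaled values), and 0 passed. *B2m*, the light chain of class I, was at 239 to 332 TPM with NT siRNAs and 188 to 342 TPM with *Uba1* siRNAs (log2FC -0.01, or -0.13 on scaled values, SE 0.19, adjusted p = 0.99 in limma). *H2-K1*, a class I heavy chain, had the lowest value, -0.04 (-0.16 on scaled values), and *Tapbpl*, a tapasin-related editor of peptides, the highest, 0.32 (0.22 on scaled values, SE 0.13, adjusted p = 0.24 in limma). Neither differed past the adjusted threshold. In 1 of the 7 (*Canx*, named after its values were seen) the groups did not overlap on deposited TPM, as for 11.6% of all genes. Its log2FC was 0.21, or 0.09 on scaled values.

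Upstream of the 8 genes, 10 of 12 genes of interferon gamma signalling and class I regulation were tested. Of these, 9 had a log2FC above 0, with a list median of 0.11. On scaled values 5 did, with a list median of -0.00013. *Irf1*, a transcription factor that induces immunoproteasome and TAP genes, measured 12.4, 11.1, 12.0 and 11.4 TPM with NT siRNAs and 5.30, 4.86, 5.94 and 6.22 TPM with *Uba1* siRNAs. Every *Uba1* muscle was below every NT muscle, and *Irf1* fell by 0.95 on the log2 scale (SE 0.08, adjusted p = 0.0043 in limma). It was at -1.06 on scaled values, and at -0.91 with an adjusted p of 0.13 with replicates 2 and 4 alone, a fit of 2 muscles per group. *Nlrc5*, the class I transactivator, was below the filter, at 0.776 to 0.921 TPM with NT siRNAs and 0.512 to 1.90 TPM with *Uba1* siRNAs. Its highest value, like that of 4 of the 8 genes (*Tap1*, *Psmb8*, *Psmb9* and *Tapbp*), was in *Uba1* replicate 3.

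Over the 8 muscles, the genes outside these lists whose scaled levels were most like the mean of the 8 were *Mxra8* (Pearson r = 0.98), *Asap3* (0.96), *Luc7l* (0.96), *Ppp2r3d* (0.95) and *Arap1* (0.95). These muscles come from 4 mice and are not independent. Among the 28 pairs of the 8 genes r ran from 0.27 (*Psmb10* and *Tap1*) to 0.94 (*Psmb8* and *Tap1*), with a median of 0.63. *Irf1* had r = -0.52 with the mean of the 8, where the 10 tested genes of its list had a median r of 0.49.

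Markers of fibroblasts and most tested markers of leukocytes moved with the 8 genes across muscles, while endothelial and myofiber markers did not. The summed TPM of 6 fibroblast markers was 788, 569, 992 and 475 in NT replicates 1 to 4 and 1037, 598, 1217 and 707 in *Uba1* replicates 1 to 4, higher in the *Uba1* leg of all 4 mice, and these markers had a median r of 0.87 with the mean of the 8. *Col1a1* and *Col3a1*, which had the highest TPM of the 6, weigh most in this sum. A log2FC above 0 was seen in 5 of the 6, while *Dpt* was at -0.21 (-0.33 on scaled values), with r = 0.54. The summed TPM of 16 leukocyte markers was 251 to 672 in NT and 241 to 678 in *Uba1* muscles, again highest in replicate 3 of both groups. Over the 10 tested the median r was 0.61, and r ran from -0.05 to 0.71. The 6 leukocyte markers below the filter were at 0 to 2.07 TPM, and 1 of them, *Cd3e* of T cells, was at 0 in 1 muscle. The 8 endothelial markers summed to 130 to 196 TPM with NT siRNAs and 146 to 185 with *Uba1* siRNAs (median r -0.34). The 10 myofiber markers summed to 131166 to 140987 TPM with NT siRNAs and 103821 to 143388 with *Uba1* siRNAs (median r -0.28). On scaled values their sums were 136834 to 148563 with NT siRNAs and 107012 to 128406 with *Uba1* siRNAs, so that every *Uba1* muscle was below every NT muscle. None of these marker lists had a gene past the adjusted threshold in limma, and at an unadjusted p under 0.05 the fibroblast marker *Lum* was higher with *Uba1* siRNAs, on deposited and on scaled values. On scaled values 5 of the 10 myofiber markers (*Acta1*, *Mylpf*, *Tnnt3*, *Tnni2* and *Tnnc2*) were lower at this p, against 6.18% of all genes. The list was not uniform, as 3 of the 10 had a scaled log2FC above 0: *Myh2* (0.43), *Myh1* (0.22) and *Des* (0.03). With the replicate block 3 of the 6 fibroblast markers (*Pdgfra*, *Col1a1* and *Lum*) and 1 of the 10 leukocyte markers tested (*S100a8*) were higher, against 22.4% of all genes. With the block on scaled values the 3 fibroblast markers were higher, against 6.96% of all genes, while *S100a8* was not past this p. There, 4 myofiber markers (*Acta1*, *Myh4*, *Mylpf* and *Tnnc2*), 1 leukocyte marker (*Cd14*) and 1 endothelial marker (*Cldn5*) were lower, against 8.76% of all genes. The single markers are named after their values were seen. The part of these cells in the levels of the 8 genes was not tested.

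**Figure D5:**
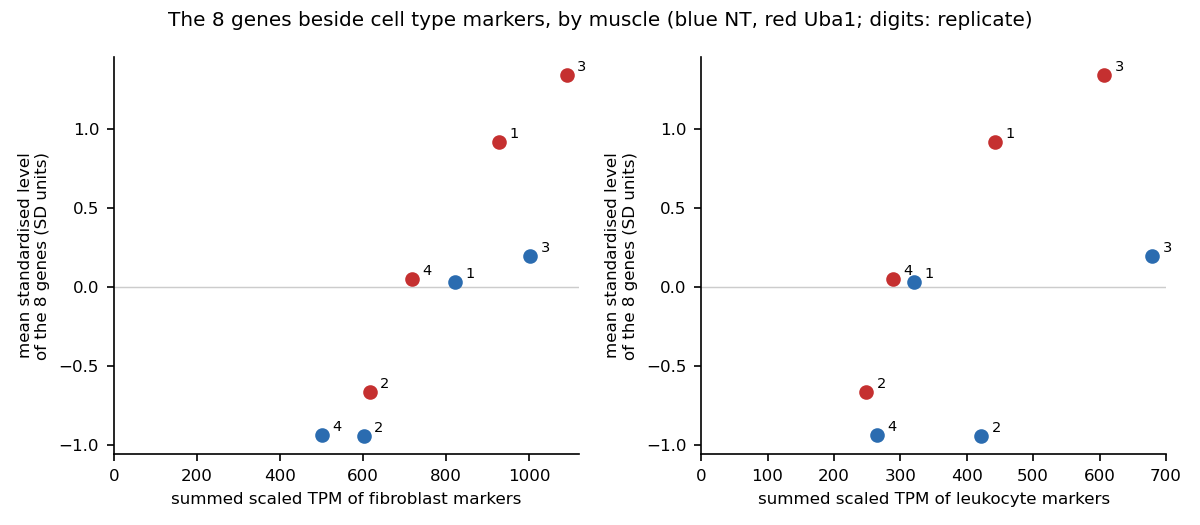
Mean standardised level of the 8 genes (y axis, SD units, median-ratio scaled) against the summed scaled TPM of fibroblast (left) and leukocyte (right) markers in each NT (blue) and *Uba1* (red) muscle, numbered by replicate. *Uba1* replicates 3 and 1 are the highest on the y axis, at 1.34 and 0.919, and NT replicates 2 and 4 the lowest, at -0.944 and -0.937.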

How the data were processed

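Libraries were made from total RNA of 8 TA muscles with a TruSeq RNA v2 kit. After trimming, the authors mapped the reads to the mouse genome (GRCm39) in CLC Genomics Workbench and deposited the level of each gene as TPM. How reads matching several genes were assigned is not given in the sources used here. All columns of the table were assigned to a sample through its title. The treatment field reads UBA2, UBA3 and UBA4 for *Uba1* replicates 2 to 4, while their titles and descriptions name UBA1, which set the group.

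Values were analysed as log2(TPM + 1). Genes that reached 1 TPM in 4 muscles or more entered a test with limma 3.58.1 in R 4.3.3 (lmFit, then eBayes with a trend, no covariates, two-sided), with Benjamini-Hochberg adjustment over 11530 genes. The study's methods name a Kruskal-Wallis test, which was run as an alternative because 4 against 4 muscles cannot pass an adjustment over all genes with it. The limma fit was run on simulated data with known changes. These were drawn as independent muscles, without pairs or a shift shared by most genes, so the run does not test the fit under those conditions. Log2 ratios of genes were compared with exact permutation tests (scipy 1.17.1), without a pseudocount. Nothing in the labels gives a sequencing batch. P-values measure the spread between muscles, whose number limits the precision.

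Sample titles give each NT muscle the same number as a *Uba1* muscle. Such muscles were taken as the contralateral legs of a mouse, as the study's design implies. In the check of this pairing, the deviations of same-numbered muscles from their group means correlated at -0.00037, 0.20, 0.58 and 0.54 for replicates 1 to 4. These values alone do not establish the pairing.

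The genes and lists were chosen with earlier results of these data known. Named were the 8 genes, the constitutive catalytic subunits, *B2m*, *Irf1*, *Nlrc5*, *Uba1*, the highest and lowest log2FC of each other pathway list, and the 5 genes most correlated with the mean of the 8. *Erap1* is one of these. *Npepps*, *Nrdc*, *Canx* and single markers were named after their values were seen. The table lists *Nrdc* under the older symbol *Nrd1*. One item of this rule is not reported here. The GC box was added to the motifs after the data were seen.

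Alternatives were a pseudocount of 0.1, no filter, a stricter filter (mean of 5 TPM), quantile normalization, scaling by median ratios, removal of mitochondrial genes before rescaling, the replicate block on deposited and on scaled values, leaving out each muscle, and, for the ratios, medians and a sign-flip test over pairs. Keeping replicates 2 and 4 alone was added after seeing the data.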

Additional observations from a re-analysis of the deposited data

How the results depend on the processing

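No member passed an adjusted p of 0.05 in limma under any alternative or by the Kruskal-Wallis test, and the lowest adjusted p of a member was 0.12. Of 133 values of members under the alternatives, 130 kept a log2FC above 0, and the exceptions were *Psmb8* (-0.032) and *Tap1* (-0.0064) with replicates 2 and 4 alone and *Tap1* (-0.067) without *Uba1* replicate 3. The members' median log2FC was 0.18 to 0.34 when single muscles were left out. Of 3 members at an unadjusted p under 0.05, median-ratio scaling and the Kruskal-Wallis test left 1, replicates 2 and 4 alone left 0, and the replicate block and TPM without mitochondrial genes gave 5, and the block on scaled values 2. Leaving out a muscle gave 0 to 5, with 0 without NT replicate 2 or 4 or *Uba1* replicate 1 or 3, and 5 without *Uba1* replicate 2. The replicate block changed no call of a member. For the ratios it was a sign-flip test over 4 pairs, whose smallest p is 0.125, so no ratio could be called by it.

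Over all genes, 3 were called in limma. The count was 11 when a mean of 5 TPM was required, 13 after removal of mitochondrial genes, 23 after scaling by median ratios and 28 after quantile normalization. The replicate block gave 57, or 76 on scaled values. The Kruskal-Wallis test and replicates 2 and 4 alone gave 0. Leaving out a muscle gave 2 to 39, the latter without *Uba1* replicate 4. At an unadjusted p under 0.05 there were 2072 genes, against 1262 when a mean of 5 TPM was required (fewer genes tested), 1223 after scaling by median ratios, 1108 after quantile normalization, 1280 with replicates 2 and 4 alone, 2722 with no filter, 2768 after removal of mitochondrial genes, 2911 with the replicate block and 1813 with the block on scaled values. Leaving out a muscle gave 1333 to 2282, the lowest without NT replicate 2.

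Signs turned for genes near 0. The log2FC of *Psmb5* was -0.093 after scaling by median ratios (with and without the block), -0.0081 after quantile normalization, -0.14 with replicates 2 and 4 alone, and -0.054 to 0.083 when a muscle was left out, with -0.016 without NT replicate 1 and the lowest value without *Uba1* replicate 1. That of *Psmb7* was -0.025 on scaled values (with and without the block) and -0.052 with replicates 2 and 4 alone. *B2m* was at 0.011 after removal of mitochondrial genes, and at -0.13 to 0.15 when a muscle was left out, with 0.10 without NT replicate 3, the highest value without *Uba1* replicate 2, and 0.048 without *Uba1* replicate 4. *H2-K1* was at 0.012 without NT replicate 3 and 0.13 without *Uba1* replicate 2, within -0.13 to 0.13, and *Lap3* at -0.012 on scaled values (with and without the block). Without single muscles, *Psme1*/*Psme2* differed by -0.13 to 0.0010 (above 0 without NT replicate 4), *Tap1*/*Tap2* by -0.33 to 0.066 (above 0 without *Uba1* replicate 2), *Tap1* itself by -0.067 to 0.34, *Psmb10*/*Psmb7* by 0.11 (without NT replicate 4) to 0.26, and *Psmb8*/*Psmb5* by 0.027 to 0.33, the lowest without *Uba1* replicate 3. With medians in place of means *Tap1*/*Tap2* differed by -0.27 and *Psmb8*/*Psmb5* by 0.12. The cause was not tested. With 4 muscles per group and unknown depth, intervals as wide as -0.35 to 0.68 for *Tap1* limit what could be detected.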
